A study of Mus musculus with 6 samples.

Results

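The tumor necrosis factor (TNF) superfamily was examined in tumor-associated macrophages (TAMs) of a mouse melanoma. Its members were taken by symbol: protein-coding genes named Tnfsf or Tnfrsf, the genes *Tnf*, *Lta*, *Ltb*, *Ltbr*, *Fas*, *Fasl*, *Cd40*, *Cd40lg*, *Cd27* and *Cd70*, and the adaptors *Traf1* to *Traf6*. All 47 such genes, 18 ligands, 23 receptors and 6 TRAFs, had at least 10 counts summed over the 6 libraries, and they belong to the 14776 protein-coding genes tested. YUMM1.7 cells, a mouse melanoma line, were grown as intradermal tumors in untreated wild-type female C57Bl/6J mice that were 8 weeks old when the tumors were induced. On day 21 the live CD45+CD11b+ cells were sorted by F4/80, a surface protein of macrophages encoded by *Adgre1*, into F4/80high and F4/80low TAMs. There were 3 bulk RNA-seq libraries of each subset, each from pooled tumors of a separate experiment, and replicates of one number share an experiment. Replicates 1 and 2 form batch 1 and replicate 3 forms batch 2, as the study draws them. Because tumors were pooled and cells were sorted in bulk, a level is an average over all cells in the gate, and fewer cells of a type and less RNA per cell cannot be told apart.

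The depth and the make-up of the libraries differed between the batches. Replicates 1, 2 and 3 of F4/80high held 30292061, 43604373 and 16045281 counts, against 32967733, 32560608 and 16204810 counts for F4/80low. In batch 2, 3 rows of the tables (*Lars2*, *Gm23935* and *Gm15564*) took 17.1% and 16.1% of all counts, against at most 0.609% in batch 1. Protein-coding genes took 89.4% and 90.0% of counts in batch 2, against 97.4% to 98.1% in batch 1. The TMM scaling factors were 0.646 and 0.602 in batch 2, against 1.21 to 1.34 in batch 1. *Adgre1* was at 273, 539 and 360 CPM (counts relative to the effective library size, so that libraries of different depth can be compared) in F4/80high replicates 1, 2 and 3 and at 243, 326 and 183 CPM in F4/80low. It was higher in F4/80high within each experiment, but the subsets overlapped, and the log2 fold change of 0.67 did not pass the test (adjusted p = 0.673, edgeR with a term for batch). All 8 macrophage markers listed were measured in both subsets, and 6 of the 8 had a higher level in F4/80high. Their sum was 4392, 10124 and 3272 CPM in F4/80high replicates 1, 2 and 3, against 3059, 4933 and 1823 CPM, higher in F4/80high in each experiment. None passed the test with batch, while with the experiment as a block *C1qa*, *C1qb* and *Mertk* did (log2 fold changes of 2.11, 1.88 and 1.53, adjusted p = 0.0281, 0.0300 and 0.0391 in edgeR). Markers of T and NK cells, B cells, neutrophils and other cells were measured as well, and their sums stand beside the results they move with.

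TNF superfamily ligands are mostly trimeric proteins on the cell surface or shed from it, and each binds one or a few receptors of the family. Receptors with a death domain can recruit adaptors that activate caspases, while many of the others recruit TRAF proteins, which lead to NF-κB and MAP kinases, and some are decoys that bind ligand without signalling. In tumors, macrophages are a known source of TNF, and T cells carry many of the costimulatory receptors, among them *Tnfrsf4* (OX40), *Tnfrsf9* (4-1BB) and *Cd27*.

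Many members lie side by side in the genome. In GENCODE M21 (GRCm38), *Ltb*, *Tnf* and *Lta* lie within chr17:35194439-35205351, and *Tnfsf9*, *Cd70* and *Tnfsf14* within chr17:57105325-57194177. *Tnfrsf4* and *Tnfrsf18* share chr4:156013843-156028895, and *Cd27*, *Ltbr* and *Tnfrsf1a* share chr6:125232622-125362484. *Tnfsf12* and *Tnfsf13* lie within chr11:69682577-69696098 together with *Tnfsfm13*, a read-through gene that covers both, and with the antisense gene *Tnfsf13os*. Since the strand used in counting is not stated, reads of these overlapping genes cannot be assigned with certainty. Over replicates 1, 2 and 3 the antisense gene held 80, 224 and 10 counts in the F4/80high libraries, against 49, 107 and 5 counts in the F4/80low libraries. The paralogs *Tnfrsf26*, *Tnfrsf22* and *Tnfrsf23* lie within chr7:143607659-143685872, and reads may be split between them.

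Upstream sequences are shown for 2 members whose letters hold the κB consensus, the DNA element that NF-κB subunits bind, because the NF-κB genes are described further on. RefSeq (GRCm38.p6) gave an upstream sequence for 37 of the 47 members, and in the 250 bases before the start 5 of them, *Ltb*, *Tnfrsf25*, *Tnfrsf8*, *Tnfrsf9* and *Traf3*, held a match on either strand. Of 27025 genes in the same table, 2225 (8.23%) held one. *Ltb* encodes lymphotoxin β, the membrane partner of lymphotoxin α, and *Traf3* encodes an adaptor that restrains non-canonical NF-κB. The *Ltb* sequence is chr17:35194257-35194438 and that of *Traf3* is chr12:111166120-111166369, both on the plus strand, with the consensus in capitals. For *Ltb* 182 of the 250 bases searched are printed, and the last 68 before the start are left out because they overlap an exon in GENCODE M21. The sequences are these:
Ltb: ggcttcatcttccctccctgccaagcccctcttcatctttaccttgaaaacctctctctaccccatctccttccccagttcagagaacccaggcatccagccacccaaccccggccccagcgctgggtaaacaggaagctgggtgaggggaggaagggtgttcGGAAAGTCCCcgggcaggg
Traf3: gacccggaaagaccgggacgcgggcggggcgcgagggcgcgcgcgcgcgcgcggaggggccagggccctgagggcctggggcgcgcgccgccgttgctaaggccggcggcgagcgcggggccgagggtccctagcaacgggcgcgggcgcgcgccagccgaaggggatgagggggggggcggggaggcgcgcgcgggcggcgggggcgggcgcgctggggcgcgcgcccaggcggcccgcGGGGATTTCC
The match in *Ltb* lies 87 to 78 bases before the RefSeq start and is on the minus strand, and that in *Traf3* is the 10 bases directly before the start. A match is only a match of letters, and no binding was measured.

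The ligands spanned a wide range of levels. Per kb of gene length, averaged over the 6 libraries, *Ltb* was at 42.2 CPM, *Tnf* at 38.9 CPM and *Tnfsf9* (4-1BB ligand) at 21.3 CPM, followed by *Tnfsf14* at 18.0 CPM. This order differed between libraries: *Ltb* was the highest ligand in 2 of them, *Tnf* in 3 and *Tnfsf14* in 1. In batch 2 *Ltb* was at 6.41 and 4.81 CPM per kb in F4/80high and F4/80low, below *Tnf* at 23.9 and 13.1 and *Tnfsf14* at 22.6 and 29.2. Of the 18 ligands, 4 were at 10 CPM per kb or more, 9 between 1 and 10, and 5 below 1 (*Tnfsf15*, *Cd70*, *Tnfsf13*, *Tnfsf18* and *Tnfsfm13*). The libraries of one subset differed widely, since *Tnf* was at 44.8 ± 24.2 CPM per kb (SD, n = 3) in F4/80high and 33.0 ± 28.3 in F4/80low. Summed over the 18 ligands the level was 276, 142 and 108 CPM per kb in F4/80high replicates 1, 2 and 3, against 210, 148 and 82.2 in the F4/80low libraries, so replicate 1 was the highest and replicate 3 the lowest in both subsets. The plot of ligand levels shows that for most ligands the spread over experiments was wider than the difference between subsets.

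**Figure D1:**
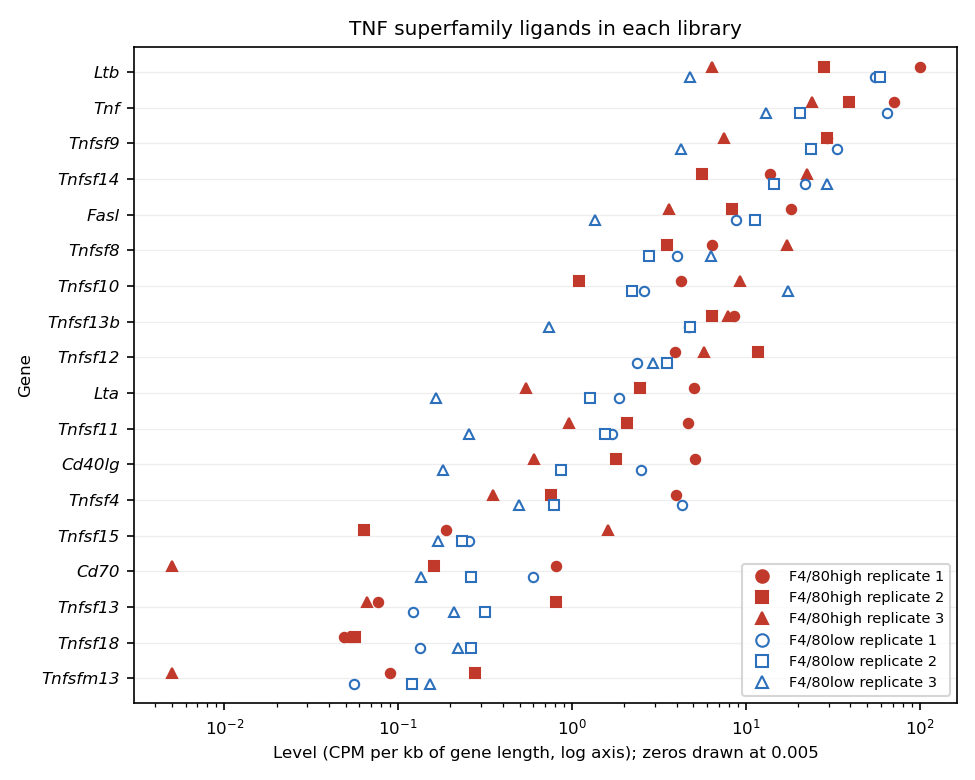
Level of each of the 18 ligands in each of the 6 libraries, in CPM per kb of gene length on a log axis. Red filled symbols are F4/80high and blue open symbols F4/80low, the shape gives the replicate, and zeros are drawn at 0.005. The subsets overlap for every ligand except *Tnfsf12*, *Tnfsf13b* and *Tnfsf18*.

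The F4/80high TAMs had higher levels of *Tnfsf12* (TWEAK, the ligand of *Tnfrsf12a*) and of *Tnfsf13b* (BAFF, a survival factor of B cells) in all libraries, although neither passed the test. *Tnfsf12* was at 5.95, 17.8 and 8.75 CPM in F4/80high replicates 1, 2 and 3 and at 3.61, 5.33 and 4.44 CPM in F4/80low. The subsets did not overlap, the log2 fold change was 1.28 (SE 0.48), and the adjusted p was 0.600 in edgeR. With F4/80high replicate 2 left out the log2 fold change was 0.61, so that library carried much of the size. The sum of macrophage markers, with *C1qb* holding the most counts, was likewise highest in F4/80high replicate 2 and higher in F4/80high in each experiment, and its part in the level of *Tnfsf12* was not tested. *Tnfsf13b* was at 7.91, 5.92 and 7.34 CPM in F4/80high and at 4.36, 4.42 and 0.683 CPM in F4/80low. Here too the subsets did not overlap, with F4/80low replicate 3 far below the other libraries, and the log2 fold change was 1.39 (SE 0.61, adjusted p = 0.654 in edgeR). That library held 6 counts of the gene, and without it the log2 fold change was 0.65. Over all genes, 2.27% had all F4/80high libraries above all F4/80low libraries, and 2.88% the reverse.

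*Tnfsf8* (CD30 ligand) and *Tnfsf11* (RANK ligand) were higher in F4/80high within each experiment. *Tnfsf8* was at 24.3, 13.5 and 65.6 CPM in F4/80high replicates 1, 2 and 3 and at 15.2, 10.6 and 24.1 CPM in F4/80low, a log2 fold change of 0.84 (SE 0.34, adjusted p = 0.628 in edgeR). The library of batch 2 was the highest in each subset, and the subsets overlapped, within batch 1 as well. *Tnfsf11* was at 10.4, 4.64 and 2.16 CPM in F4/80high and at 3.78, 3.46 and 0.569 CPM in F4/80low, a log2 fold change of 1.27 (SE 0.53, adjusted p = 0.638). *Lta* and *Cd40lg*, which encode lymphotoxin α and CD40 ligand and are known from lymphocytes, were also higher in all 3 experiments, with log2 fold changes of 1.35 and 1.19 (adjusted p = 0.680 and 0.716). That of *Cd40lg* ran from 0.63 without F4/80high replicate 1 to 1.90 without F4/80low replicate 1. *Lta* and *Cd40lg* were low in batch 2, with 7 counts each in F4/80high replicate 3 and 2 counts each in F4/80low replicate 3. *Tnfsf11* held 20 and 5 counts in these libraries.

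*Tnf* itself was at 117, 64.2 and 39.2 CPM in F4/80high replicates 1, 2 and 3 and at 107, 33.8 and 21.4 CPM in F4/80low. Replicate 1 was the highest and replicate 3 the lowest in both subsets, and within each experiment it was higher in F4/80high, by 0.13, 0.92 and 0.87 on the log2 scale. The log2 fold change was 0.53 (SE 0.42, adjusted p = 0.787 in edgeR with batch), and 0.64 (SE 0.24, adjusted p = 0.408) with the experiment as a block. In the fit with batch, leaving out F4/80low replicate 1 gave 1.19, and leaving out replicate 2 of the same subset gave 0.21. Per kb, *Tnf* stood at 1.03, 0.484 and 0.475 of the level of its receptor *Tnfrsf1a* in F4/80high, against 0.577, 0.291 and 0.220 in the F4/80low libraries, so this ratio too was higher in F4/80high within each experiment.

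On the F4/80low side stood *Tnfsf14* (LIGHT, which binds *Ltbr* and *Tnfrsf14*). It was at 25.7, 10.4 and 42.0 CPM in F4/80high replicates 1, 2 and 3 and at 40.9, 27.0 and 54.3 CPM in F4/80low, lower in F4/80high in all 3 experiments. The log2 fold change was -0.74 (SE 0.36, adjusted p = 0.692 in edgeR), and -0.81 (SE 0.27, adjusted p = 0.340) with the block, the smallest adjusted p among the members in that fit. With batch it was -1.12 when F4/80high replicate 1 was left out and -0.42 when F4/80high replicate 2 was. *Tnfsf18* (GITR ligand) held 4, 6 and 1 counts in F4/80high, against 11, 22 and 4 counts. These did not overlap on the CPM scale, but the counts are few and the log2 fold change of -1.92 had an SE of 1.48. *Tnfsf10* (TRAIL) moved in both directions, being at 22.5, 5.76 and 48.6 CPM against 13.6, 11.6 and 92.1 CPM, higher in F4/80high in experiment 1 alone.

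Of the 18 ligands 12 had a log2 fold change above 0, with a median of 0.30, whereas the median over all genes tested was 0.009 and 50.8% of them were above 0. With the block the median of the ligands was 0.20. Of the 12, 5 (*Ltb*, *Fasl*, *Lta*, *Cd40lg* and *Tnfsf11*) are known from T cells, and the 10 T and NK cell markers described further on were all higher in F4/80high too. Their part was not tested. Among the other 13 ligands 7 were above 0, with a median of 0.22 with batch and -0.072 with the block. The 5 were put together after the values were seen and were all above 0, so this split is no test. They are not a full list of the ligands that T cells can express. The other 13 hold ligands on both sides of 0, with *Tnfsf8* at 0.84 and *Tnfsf14* at -0.74. The ligands higher in F4/80high numbered 12 to 14 when each library was left out in turn. In the whole family 8 of 47 members (17.0%) were higher in F4/80high in all 3 experiments, against 16.0% of all genes, and 6 (12.8%) were lower, against 15.7%. Of the 8, 7 were ligands (*Tnf*, *Lta*, *Cd40lg*, *Tnfsf8*, *Tnfsf11*, *Tnfsf12* and *Tnfsf13b*) and 1 was a receptor, *Tnfrsf11a*. The 6 lower members were *Tnfsf4*, *Tnfsf14*, *Tnfsf18*, *Fas*, *Tnfrsf14* and *Traf3*. The plot of differences by experiment shows these members on one side of 0, which the other 33 were not in all 3 experiments.

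**Figure D2:**
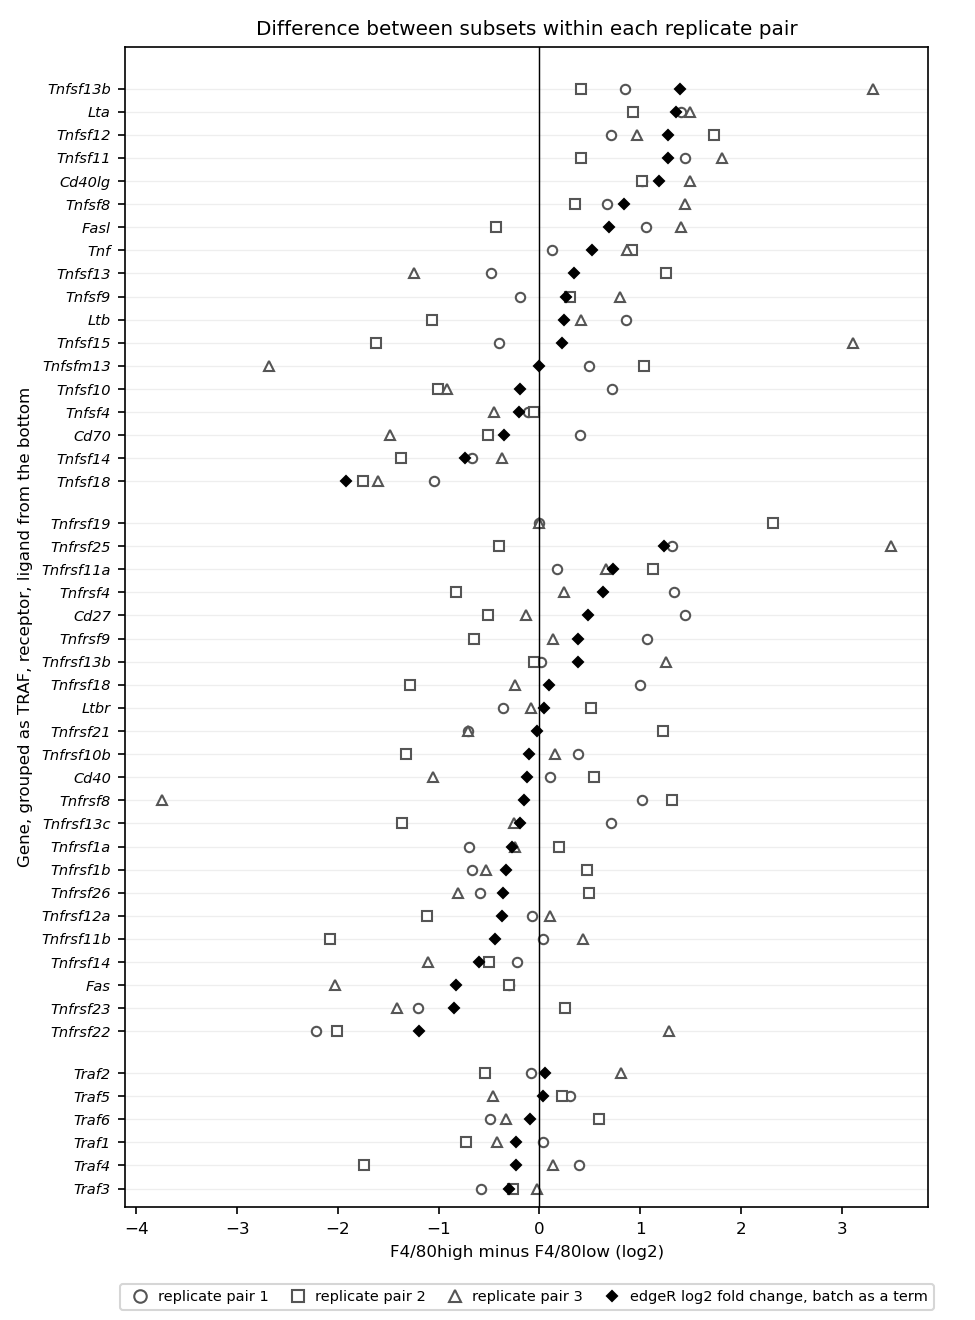
Difference between subsets for each member, F4/80high minus F4/80low in log2 CPM, with an open circle, square and triangle for replicate pairs 1, 2 and 3 and a black diamond for the edgeR log2 fold change with batch as a term. Ligands are at the top, receptors in the middle and TRAFs at the bottom, and 8 members lie right of 0 and 6 left of 0 in all 3 pairs. *Tnfrsf19*, with counts in 1 library alone, has no diamond.

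Among the receptors the TNF receptors were among the highest per kb, with *Tnfrsf1a* at 74.1, *Tnfrsf26* at 74.0 and *Tnfrsf1b* at 66.5 CPM per kb over the 6 libraries. This order too differed between libraries, with *Tnfrsf1a* the highest receptor in 2 of them, *Tnfrsf26* in 2, *Tnfrsf1b* in 1 and *Tnfrsf9* in F4/80high replicate 1, at 98.3 CPM per kb. In batch 2 *Tnfrsf21* was at 59.6 and 97.6 CPM per kb, above *Tnfrsf1a* at 50.4 and 59.5. The rank of *Tnfrsf26* came from batch 2, where it was at 154 and 270 CPM per kb in F4/80high and F4/80low, while in batch 1 it was at 3.60 to 7.20. *Tnfrsf1a*, the receptor with a death domain, was at 180, 210 and 131 CPM in F4/80high replicates 1, 2 and 3 and at 293, 184 and 154 CPM in F4/80low. *Tnfrsf1b*, the second TNF receptor, which signals through *Traf2*, was at 285, 262 and 137 CPM in F4/80high and at 452, 189 and 198 CPM in F4/80low. Both were lower in F4/80high in experiments 1 and 3 and higher in experiment 2, and the subsets overlapped. Per kb the second receptor stood at 0.698 to 1.07 times the first in the 6 libraries, a narrower range than that of either receptor.

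Of the 23 receptors 12 were at 10 CPM per kb or more, 7 between 1 and 10 and 4 below 1. The receptor sum per kb was 517, 367 and 453 CPM in F4/80high replicates 1, 2 and 3, against 507, 369 and 639 CPM in F4/80low, where *Tnfrsf26* made up much of the batch 2 sums. Of the 5 receptors with a death domain (*Tnfrsf1a*, *Fas*, *Tnfrsf10b*, *Tnfrsf21* and *Tnfrsf25*) 1 was higher and 4 were lower in F4/80high, with a median log2 fold change of -0.11. *Tnfrsf21* (DR6) was at 57.1, 125 and 216 CPM against 93.3, 53.6 and 354 CPM, lower in F4/80high in experiments 1 and 3 and higher in experiment 2, as the TNF receptors were.

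*Tnfrsf11a* (RANK, the receptor of *Tnfsf11*) was the receptor that was higher in F4/80high in all 3 experiments. It was at 45.7, 105 and 252 CPM in F4/80high replicates 1, 2 and 3 and at 40.4, 48.1 and 160 CPM in F4/80low, with a log2 fold change of 0.73 (SE 0.31, adjusted p = 0.642 in edgeR, 0.375 with the block). Without F4/80high replicate 2, as for *Tnfsf12*, the value was smaller, at 0.28. Batch 2 was the highest in both subsets. Thus ligand and receptor of this pair were both on the F4/80high side, but the ligand was lowest in batch 2 where the receptor was highest. The soluble decoy of the same ligand, *Tnfrsf11b* (osteoprotegerin), was at 1.57 to 4.94 CPM in F4/80high and 3.19 to 6.83 CPM in F4/80low, with no common direction.

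*Fas*, the death receptor of *Fasl*, was lower in F4/80high. It was at 25.0, 20.4 and 6.15 CPM in F4/80high replicates 1, 2 and 3 and at 30.9, 25.2 and 25.3 CPM in F4/80low, so the subsets did not overlap (by 25.0 against 25.2 CPM at the nearest). The log2 fold change was -0.83 (SE 0.38, adjusted p = 0.680 in edgeR), and -0.30 in batch 1 alone. *Tnfrsf14* (HVEM), a receptor of *Tnfsf14*, was also lower in all 3 experiments, at 3.70, 2.85 and 8.31 CPM against 4.33, 4.05 and 18.0 CPM (log2 fold change -0.60, adjusted p = 0.723). *Ltbr*, the other receptor of *Tnfsf14*, was at 55.0 to 89.8 CPM in F4/80high and 63.1 to 72.5 CPM in F4/80low. *Tnfrsf23*, a decoy receptor of TRAIL, was at 15.1, 18.0 and 5.72 CPM against 35.0, 15.1 and 15.4 CPM, a log2 fold change of -0.85 (SE 0.38, adjusted p = 0.658). Experiment 2 went the other way for this gene.

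Other partners of these ligands showed no common direction. *Tnfrsf12a* (Fn14, the receptor of *Tnfsf12*) was at 37.9, 24.9 and 12.5 CPM in F4/80high and at 40.0, 54.0 and 11.6 CPM in F4/80low. *Tnfrsf13b* (TACI, a receptor of *Tnfsf13b*) was at 47.4, 39.8 and 33.6 CPM against 46.8, 41.5 and 14.0 CPM. In both genes the experiments differed in sign. *Tnfrsf8* (CD30) was at 3.98, 1.32 and 0.756 CPM against 1.93, 0.491 and 10.9 CPM, higher in F4/80high in experiments 1 and 2 and lower in experiment 3. *Tnfrsf19* held 13 counts, all of them in F4/80high replicate 2, with 0 counts in each of the other 5 libraries, and no fold is given. Of the 23 receptors 9 were higher in F4/80high (6 to 11 when each library was left out), with a median log2 fold change of -0.13.

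**Figure D3:**
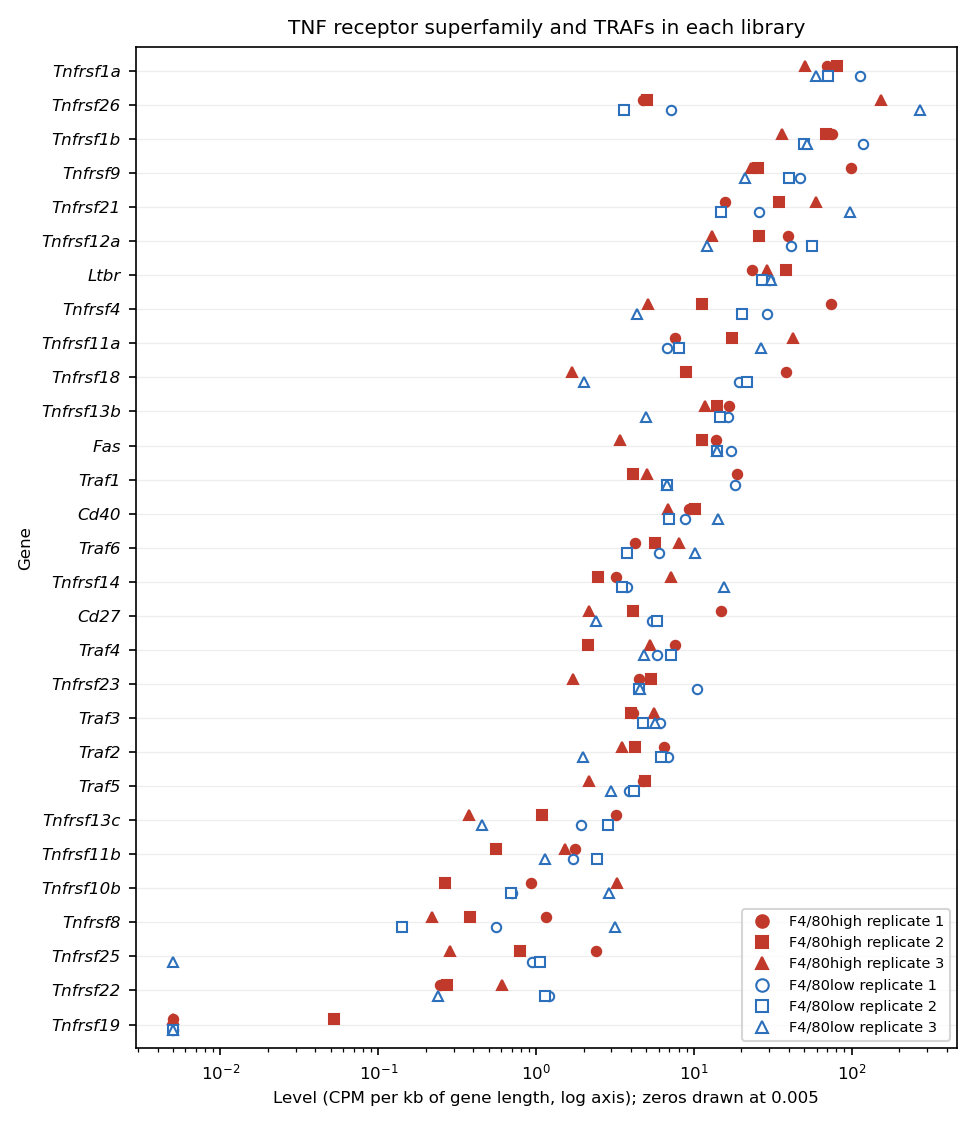
Level of each of the 23 receptors and 6 TRAFs in each of the 6 libraries, in CPM per kb of gene length on a log axis, with symbols as for the ligands and zeros drawn at 0.005. *Fas* is the receptor whose subsets do not overlap, and *Tnfrsf26* is far higher in both libraries of replicate 3 than in the others.

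The 6 TRAFs were all between 1 and 10 CPM per kb. *Traf1*, an adaptor that is itself induced by NF-κB, was the highest per kb at 9.96 CPM averaged over the 6 libraries, followed by *Traf6* (which also serves Toll-like receptors) at 6.31 CPM and *Traf4* at 5.48 CPM. *Traf1* led in both replicate 1 libraries, *Traf6* in 3 others and *Traf4* in F4/80low replicate 2. *Traf1* was at 165, 36.1 and 44.6 CPM in F4/80high replicates 1, 2 and 3 and at 161, 59.9 and 59.6 CPM in F4/80low, and replicate 1 was the highest in both subsets. *Traf3* was lower in F4/80high in all 3 experiments, at 30.0, 29.2 and 41.2 CPM against 45.0, 35.1 and 41.9 CPM. Its log2 fold change was -0.30 (SE 0.24, adjusted p = 0.781 in edgeR), with almost no difference in experiment 3. *Traf2* and *Traf5* had log2 fold changes of 0.06 and 0.03, and *Traf4* of -0.24. The median over the 6 was -0.16, and their adjusted p-values were all at 0.781 or above.

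No member passed the threshold of an adjusted p under 0.05 with an absolute log2 fold change above 1. In edgeR with batch 0 of the 14776 genes passed (0%), and with the experiment as a block 76 did (0.514%), none of them a member. DESeq2 called 150 genes with batch and 357 with the block, again no member. At an unadjusted p under 0.05 the fit with batch held 6 members (12.8%), against 7.57% of all genes. These were *Tnfsf8*, *Tnfsf11*, *Tnfsf12*, *Tnfsf13b* and *Tnfrsf11a* on the F4/80high side, where all genes stood at 3.26%, and *Tnfrsf23* on the F4/80low side, at 4.30%. With the block there were 5 members (10.6%), against 9.84% of all genes. Those were *Tnf*, *Tnfsf8*, *Tnfsf12* and *Tnfrsf11a* on the F4/80high side (3.96% of all genes) and *Tnfsf14* on the F4/80low side (5.88%). These shares moved with the settings for all genes as well. Without a batch term 0 members and 1.76% of all genes were under 0.05. There were 2 members (4.26%) without F4/80low replicate 1, against 4.08% of all genes, and 2 without either library of replicate 3, against 3.80% in both cases. Without F4/80high replicate 1 there were 6 (12.8%), against 13.5% of all genes. Of these 2 (4.26%) were on the F4/80high side, against 5.68%, and 4 (8.51%) on the F4/80low side, against 7.81%. Without F4/80low replicate 2 there were 0 members on the F4/80high side, against 3.26% of all genes, and 4 (8.51%) on the F4/80low side, against 4.64%. With F4/80high replicate 2 removed there were 9 (19.1%), against 7.05% of all genes, with 8 (17.0%) on the F4/80high side, against 3.05%.

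A group of members varied widely over the libraries, as the T and NK cell markers did. The summed level of 10 T and NK cell markers was 1375, 391 and 189 CPM in F4/80high replicates 1, 2 and 3, against 489, 605 and 83.2 CPM in the F4/80low libraries, a 16.5-fold range, with *Nkg7* holding the most counts. All 10 of these markers were higher in F4/80high, none passed the test, and *Cd3e* was present in every library at 14.6 to 163 CPM, although the gate was drawn on lineage-negative cells. *Ltb* was at 152, 42.5 and 9.72 CPM in F4/80high and at 83.6, 89.4 and 7.29 CPM in F4/80low. Its order over the libraries of batch 1 was that of the marker sum, with F4/80high replicate 1 first, then F4/80low replicates 2 and 1, and F4/80high replicate 2 last.

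Members that T cells are known to express, a set of 10, were put together after the values were seen (*Tnfrsf4*, *Tnfrsf9*, *Tnfrsf18*, *Tnfrsf25*, *Cd27*, *Ltb*, *Fasl*, *Lta*, *Cd40lg* and *Tnfsf11*). Of the 10, 5 (*Tnfrsf18*, *Cd27*, *Ltb*, *Fasl* and *Tnfrsf25*) had the order of the marker sum in batch 1 and the other 5 did not. All 10 were highest in F4/80high replicate 1, as were 17 of the 47 members, and 8 were lowest in F4/80low replicate 3, as were 15 of the 47. Within experiments, 10 were higher in F4/80high in experiment 1, 7 were lower in experiment 2 and 8 were higher in experiment 3. The marker sum was higher in F4/80high in experiments 1 and 3 and lower in experiment 2. Against it, *Lta*, *Cd40lg* and *Tnfsf11* were higher in F4/80high in experiment 2, by 0.93, 1.02 and 0.41 on the log2 scale. *Tnfrsf18* and *Cd27* were lower in experiment 3, by 0.24 and 0.14.

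*Tnfrsf4* (OX40), a costimulatory receptor of T cells, was at 100, 15.4 and 7.02 CPM in F4/80high replicates 1, 2 and 3 and at 39.7, 27.5 and 5.92 CPM in F4/80low, a 16.9-fold range. Taken as a percent of the marker sum in the same library it ranged 2.19-fold, from 3.72% to 8.13%. For *Fasl*, a death ligand of cytotoxic lymphocytes, at 35.5, 16.2 and 7.02 CPM against 17.0, 21.9 and 2.62 CPM, the range went from 13.6-fold to 1.61-fold. *Tnfrsf9* (4-1BB) was at 268, 69.3 and 62.8 CPM against 128, 109 and 57.3 CPM, and *Tnfrsf18* (GITR, whose ligand is *Tnfsf18*) at 58.8, 13.5 and 2.59 CPM against 29.4, 33.0 and 3.07 CPM. In both genes F4/80high was higher in experiment 1 and lower in experiment 2. For *Tnfrsf9* the range went from 4.67-fold to 3.89-fold, and for *Tnfrsf18* from 22.7-fold to 4.38-fold. For *Cd27* it went from 6.77-fold to 2.97-fold, and for *Ltb* from 20.8-fold to 3.32-fold. Members outside this set were set on the same scale. *Tnfrsf1a* ranged 2.25-fold in CPM and 14.1-fold relative to the marker sum, *Tnfrsf1b* 3.29-fold and 11.5-fold, and *Tnfsf12* 4.95-fold and 12.3-fold. *Tnfsf13b* ranged 11.6-fold in CPM and 6.76-fold relative to the sum, and like the T cell set it was highest in F4/80high replicate 1 and lowest in F4/80low replicate 3. The marker sum itself ranged 16.5-fold, so dividing by it tends to widen the range of a gene that varied little. The set was chosen after the values were seen, so this contrast is no test. How far T and NK cell RNA takes part in the levels of these genes was not tested. Leaving out F4/80high replicate 1 turned the log2 fold change of *Ltb* from 0.24 to -0.45, of *Tnfrsf4* from 0.63 to -0.57, of *Tnfrsf9* from 0.39 to -0.38 and of *Cd27* from 0.48 to -0.33.

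**Figure D4:**
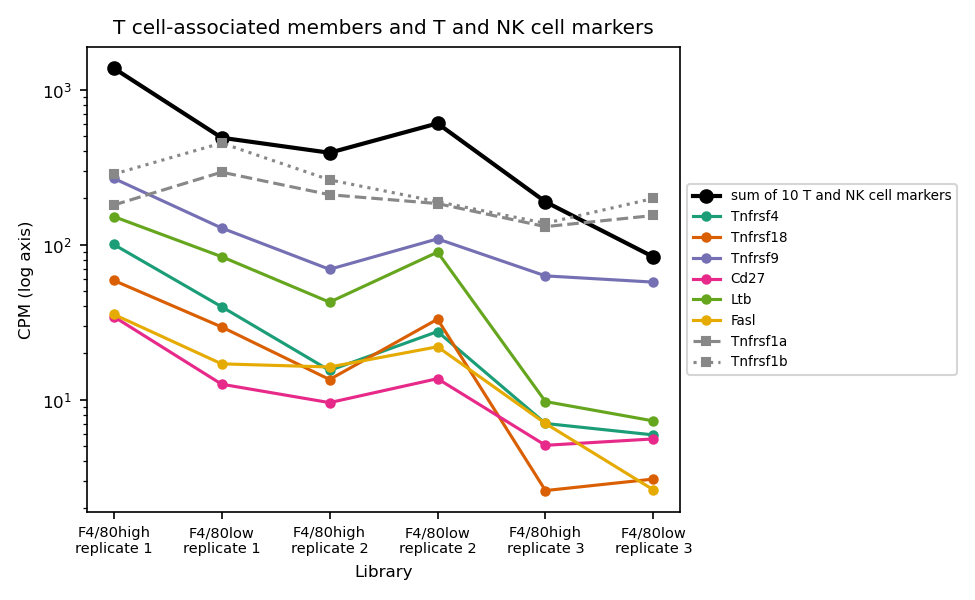
Level of 6 members known from T cells (coloured), of the TNF receptors *Tnfrsf1a* and *Tnfrsf1b* (grey) and of the sum of 10 T and NK cell markers (black) in each library, in CPM on a log axis. The lines only join the points of one gene. The coloured lines are highest where the black line is highest, in F4/80high replicate 1, whereas the grey lines peak in F4/80low replicate 1.

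*Tnfrsf13c*, the BAFF receptor of B cells, was at 6.45, 2.19 and 0.756 CPM in F4/80high replicates 1, 2 and 3 and at 3.91, 5.75 and 0.911 CPM in F4/80low. The sum of 6 B cell markers was 139, 60.4 and 9.72 CPM in F4/80high and 80.7, 127 and 6.60 CPM in F4/80low, with *Cd79a* holding the most counts, and the gene had the same highest library. Its range was 8.54-fold in CPM and 3.80-fold relative to that sum. *Tnfrsf13b*, the other BAFF receptor measured, ranged 3.38-fold in CPM and 10.6-fold relative to the sum. The part of B cells in these levels was not tested.

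On the F4/80low side the markers of several other cells were higher. All 7 neutrophil markers, 7 dendritic cell markers, 5 eosinophil markers, 6 mast cell and basophil markers and 6 fibroblast markers were higher in F4/80low, none past the test in the fit with batch. With the experiment as a block the neutrophil markers *Cxcr2*, *Mmp8*, *S100a9* and *S100a8* passed (log2 fold changes of -1.49, -1.39, -1.17 and -1.13, adjusted p = 0.0333, 0.0335, 0.0464 and 0.0499 in edgeR), as did the dendritic cell marker *Cd209a* (-2.21, adjusted p = 0.0377). The neutrophil sum was 1852, 668 and 656 CPM in F4/80high replicates 1, 2 and 3 and 3983, 2474 and 1368 CPM in F4/80low, with *Retnlg* holding the most counts. The dendritic cell sum was 317, 99.4 and 108 CPM against 620, 186 and 177 CPM, with *Ccr7* holding the most counts. The eosinophil sum was 175, 88.1 and 111 CPM against 368, 590 and 245 CPM, with *Ccr3* holding the most counts. These sums, and those of the mast cell and basophil and of the fibroblast markers, were higher in F4/80low in each experiment. So were *Tnfsf4*, *Tnfsf14*, *Tnfsf18*, *Tnfrsf14*, *Fas* and *Traf3*, and the part of these cells in the levels of these members was not tested. The sum of the 3 melanoma markers measured was at most 3.07 CPM in any library.

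The levels of the members also differed between batches, as those of all genes did. In a contrast of batches that was added after the values were seen, 23 of the 47 members (48.9%) differed between batch 2 and batch 1 at an adjusted p under 0.05 in edgeR, against 42.4% of all genes tested. Of the members, 8 (17.0%) were higher in batch 2 and 15 (31.9%) higher in batch 1, against 19.8% and 22.6% of all genes. Batch 2 is a single experiment whose 2 libraries are not independent, so these calls compare 1 experiment with 2 others, and their p-values are too small. *Tnfrsf26*, a paralog of the decoys *Tnfrsf22* and *Tnfrsf23*, was at 14.2, 15.1 and 458 CPM in F4/80high replicates 1, 2 and 3 and at 21.4, 10.7 and 802 CPM in F4/80low. It was 5.32 higher in batch 2 on the log2 scale, and per kb it was the highest receptor in both libraries of batch 2. *Tnfsf9*, *Ltb* and *Tnfrsf18* were lower in batch 2, by log2 differences of -2.33, -3.44 and -3.57. Each batch holds both subsets, so the difference between subsets can be read within a batch, but batch 2 has 1 library of each.

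The genes downstream of the receptors were read from a list of 41 adaptors, kinases, ubiquitin enzymes, NF-κB genes and sheddases. These act between the receptors and their target genes or, in the case of the sheddases, release ligands from the cell surface. Of these 31 were lower and 10 higher in F4/80high, with a median log2 fold change of -0.20, and none passed the test in either fit. At an unadjusted p under 0.05 there were 2 (4.88%) in the fit with batch and 9 (22.0%) with the block, all of them lower in F4/80high, against 7.57% and 9.84% of all genes. Of the 41 genes, 14 (34.1%) were lower in F4/80high in all 3 experiments, against 15.7% of all genes. All 9 genes of NF-κB subunits and inhibitors of the list (*Nfkb1*, *Nfkb2*, *Rela*, *Relb*, *Rel*, *Nfkbia*, *Nfkbib*, *Nfkbie* and *Bcl3*) had a log2 fold change below 0, with a median of -0.44, and 8 of the 9 were lower in all 3 experiments. Without F4/80low replicate 1, 7 of the 9 were below 0. The sums of the neutrophil, dendritic cell, eosinophil, mast cell and basophil, and fibroblast markers were also lower in F4/80high in each experiment. Their part in the levels of these genes was not tested.

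*Nfkbia*, which encodes the inhibitor IκBα and is itself a target of NF-κB, was at 2107, 816 and 502 CPM in F4/80high replicates 1, 2 and 3 and at 3005, 1954 and 884 CPM in F4/80low. It was lower in F4/80high in each experiment, by 0.51, 1.26 and 0.82 on the log2 scale, while the subsets overlapped across experiments. The log2 fold change was -0.78 (SE 0.35, adjusted p = 0.674 in edgeR with batch, 0.116 with the block). *Birc3* (cIAP2, a ubiquitin ligase that works with *Traf2*) was at 151, 77.8 and 238 CPM against 224, 166 and 518 CPM, a log2 fold change of -0.89 (SE 0.29, adjusted p = 0.530, 0.107 with the block). *Rel*, chosen after its values were seen, was at 115, 56.4 and 1598 CPM against 177, 86.2 and 2634 CPM. Its log2 fold change was -0.65 and differed little between experiments, although its level in batch 2 was far higher.

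DESeq2 with the block gave adjusted p-values of 0.00296 for *Birc3*, 0.00591 for *Nfkbia* and 0.0436 for *Rel*, the only genes among the 47 members and the 41 downstream genes under 0.05 in any fit, and their log2 fold changes stayed under the threshold of 1 there. *Map3k5* (ASK1, a kinase of the stress pathway) was at 34.0, 29.2 and 54.6 CPM against 67.5, 42.4 and 81.8 CPM, a log2 fold change of -0.73 (SE 0.25, adjusted p = 0.543 in edgeR). On the F4/80high side, *Fadd*, the adaptor of death receptors, was at 5.72, 8.05 and 5.83 CPM against 3.26, 4.67 and 4.33 CPM, and the subsets did not overlap (log2 fold change 0.68, adjusted p = 0.716). It was 1 of 3 of the 41 genes (7.32%) with all F4/80high libraries above all F4/80low libraries, besides *Otulin* and *Tank*, against 2.27% of all genes, and 0 of the 41 had all F4/80low libraries above all F4/80high libraries, against 2.88%. *Ripk3*, a kinase of necroptosis, had a log2 fold change of 0.54, and *Adam17*, the protease that sheds TNF, of 0.43, each lower in experiment 1 and higher in the others. Without F4/80high replicate 3 the value of *Ripk3* was 0.23, and without F4/80high replicate 2 that of *Adam17* was 0.12.

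**Figure D5:**
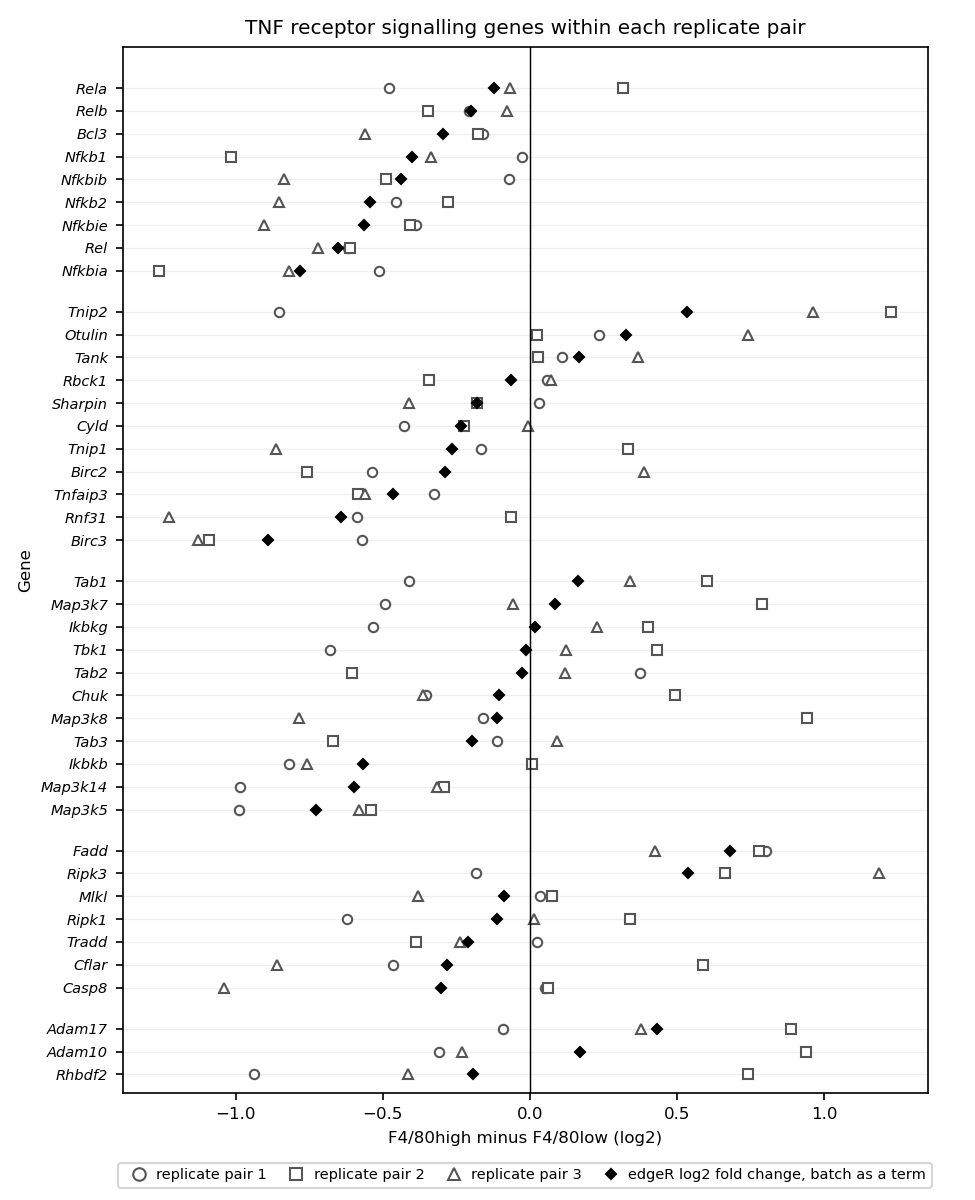
Difference between subsets for each of the 41 downstream genes, F4/80high minus F4/80low in log2 CPM, with open symbols for the 3 replicate pairs and a black diamond for the edgeR log2 fold change with batch as a term. From the top the blocks are NF-κB subunits and inhibitors, ubiquitin enzymes and feedback genes, kinases, adaptors and death genes, and sheddases. The top block lies left of 0 except for *Rela* in replicate pair 2.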

How the data were processed

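Sorted TAMs were profiled by bulk RNA-seq, with 3 libraries of each subset. One table per library was deposited by the authors, giving raw read counts (no normalization), gene length and biotype for 23424 genes. The reads went through the sequencing center's own alignment pipeline, and the aligner, counting rule, strand and genome build are not given in the sources used here. No library was a copy of another.

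The software was R 4.3.3, edgeR 4.0.16, DESeq2 1.42.0 and limma 3.58.1. Of 15989 protein-coding genes (deposited biotype), 14776 reached a sum of 10 counts. They were fitted with edgeR's quasi-likelihood test under TMM scaling, with batch and subset as terms, and p-values were adjusted over all of them by Benjamini-Hochberg. Differences within an experiment are of log2 CPM with a prior count of 2. A total of 3 counts in a library, taken as the floor, was 0.0582 to 0.0756 CPM in batch 1 and 0.324 and 0.342 CPM in batch 2. The steps were run on simulated counts with the same dispersion for all genes and no effect of experiment within a batch. Changes were planted only in genes above a set mean count, so the run does not speak for members of few counts. Gene positions are from GENCODE M21, in which 99.4% of the gene IDs were found, and sequences from RefSeq.

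The replicate number marks one of the independent experiments, so libraries of one number were taken as pairs. Over 10089 genes, the libraries of replicates 1, 2 and 3 deviated together, with correlations of 0.745, 0.729 and 0.907 around the subset means and of 0.241 within batch 1 alone. The replicate block, DESeq2, other normalizations, filters and biotypes, no batch term and leaving out each library were the alternatives.

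The members, the lists of partners, downstream genes and markers, and the tests were chosen with earlier results of these data known. The genes named are *Adgre1*, members with an unadjusted p under 0.05 in either fit, up to 3 per direction and role with the smallest p, the 3 highest per kb in each role, partners of these, and up to 3 downstream genes per direction. *Otulin*, *Tank*, *Rel*, *Tnfrsf21* and the members known from T cells were chosen after their values were seen. The p-values of the fit with batch measure the spread between libraries within a batch. That fit takes the libraries of one experiment as independent. With the replicate block the p-values measure how far the difference between subsets varied between these experiments.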

Additional observations from a re-analysis of the deposited data

How the results depend on the processing

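No member and no downstream gene was called under any of the alternatives. The count over all genes, 0 in edgeR with batch, was 76 with the replicate block in edgeR, 150 in DESeq2 with batch and 357 in DESeq2 with the block, and it ranged from 0 to 55 when each library was left out in turn, with 55 without F4/80high replicate 1. The members with an unadjusted p under 0.05, 6 in edgeR with batch, numbered 0 without a batch term and 2 in batch 1 alone, and 2 to 9 with each library left out, while over all genes the 1118 became 260, 567 and 562 to 1994. The block changed no call of a member or downstream gene. Of the members, 21 kept the sign of their log2 fold change in every alternative run. The other 26 include *Tnfrsf19*, which only went to 0 within rounding without F4/80high replicate 2, the library with all its counts. The rest of the 26 changed sign in at least 1 alternative. Among those with a value in the text, leaving out 1 library moved the log2 fold change of *Tnfrsf1b* to between -0.64 and 0.065, *Ltb* to between -0.45 and 0.64, *Tnfsf10* to between -1.04 and 0.16, *Tnfrsf4* to between -0.57 and 1.07, *Tnfrsf9* to between -0.38 and 0.72, *Cd27* to between -0.33 and 0.80, *Traf1* to between -1.10 and 0.24, *Traf2* to between -0.28 and 0.30, *Traf4* to between -0.85 and 0.16, *Traf5* to between -0.074 and 0.26, *Traf6* to between -0.30 and 0.085, *Tnfrsf18* to between -0.87 and 0.52, *Tnfrsf8* to between -1.38 and 1.13, *Tnfrsf21* to between -0.55 and 0.31, *Ltbr* to between -0.23 and 0.21, *Tnfrsf13b* to between -0.017 and 0.56, *Tnfrsf13c* to between -0.83 and 0.17 and *Tnfrsf11b* to between -0.88 and 0.0047. Others kept their sign but moved by over 1.5 times. The log2 fold change of *Adgre1* was 0.36 without F4/80high replicate 2. Without F4/80low replicate 3 that of *Tnfsf8* was 0.55, *Tnfrsf14* -0.36 and *Fas* -0.31, and *Tnfsf9* went from 0.26 to 0.034. Without F4/80low replicate 1 that of *Tnfrsf23* was -0.53, *Rel* -0.32 and *Traf3* -0.15. In the same fit *Tnfrsf1a* went from -0.27 to -0.055 and *Tnfrsf26* from -0.36 to -0.12. *Tnfrsf12a* went from -0.37 to -0.17 without F4/80low replicate 2, and *Fasl* from 0.69 to 0.40 without F4/80high replicate 1. *Nfkbia* was at -1.26 without F4/80high replicate 1 and at -0.51 without F4/80high replicate 2. In batch 1 alone *Tnfsf10* was at 0.16, *Traf2* at -0.28, *Traf6* at 0.028, *Tnfrsf8* at 1.13, *Tnfrsf21* at 0.31 and *Tnfrsf13b* at -0.016, and without a batch term *Traf2* was at -0.082. With the replicate block *Tnfrsf18* was at -0.17 in edgeR and DESeq2, and *Tnfrsf21* was at 0.0048 with library size alone and at 6.21e-04 with all biotypes. The causes were not tested. Depth limits the members of few counts, and in batch 2 a gene under 0.324 CPM rests on fewer than 3 counts.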
